A study of Homo sapiens with 18 samples.

Results

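The genes described here encode the enzymes that write and remove DNA methylation, with UHRF1 and its paralog UHRF2. They were chosen by name and number 8 of the 62703 annotated genes in the deposited tables: DNMT1, DNMT3A, DNMT3B, UHRF1, UHRF2, TET1, TET2 and TET3. Each was found under 1 Ensembl identifier, and all 8 passed the filter on low counts in every comparison. They were followed in MDA-MB-231 cells, an established cancer line from breast that lacks hormone receptors and HER2 amplification. Poly(A) RNA was sequenced in 10 distinct libraries, which form 5 groups of 2. In the knockdown experiment the cells were exposed for 24 h to lentivirus carrying a short hairpin RNA, which directs the destruction of a matching transcript. The hairpin was a control shRNA, shEZH2 (against EZH2) or shE2F1 (against E2F1). Puromycin at 2 ug/ml then acted for 72 h, in the control cells as well. In the drug experiment the cells received the solvent DMSO or 1 uM GSK126, an inhibitor of the catalytic activity of EZH2, for 72 h, with no virus and no selection. Each target was depleted with 1 hairpin, so an effect of the target and an off-target effect of the hairpin cannot be told apart.

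Methylation of cytosine in CpG dinucleotides silences promoters and repeats, and it has to be copied after each round of replication. DNMT1 does the copying, and UHRF1 brings it to the newly replicated sites by binding hemimethylated CpG and ubiquitinating histones there. UHRF2 is built alike, but is known not to replace UHRF1 in this task. DNMT3A and DNMT3B set methylation at sites that carried none before, whereas TET1, TET2 and TET3 oxidise methylated cytosine, the first step of its removal. EZH2 is the histone methyltransferase of PRC2, a Polycomb complex that keeps genes silent. E2F1 is a transcription factor of the G1/S transition, and DNMT1 and UHRF1 are known as genes expressed mostly in dividing cells.

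Because an E2F hairpin was used, the promoters of the 8 genes were searched for E2F words. The promoters were the stretches from 250 bases before to 50 bases after the transcription starts in the RefSeq table of GRCh38.p14, and each of the 8 genes matched by symbol. The 4 words of 8 letters were TTTCCCGC, TTTCGCGC, TTTGCCGC and TTTGGCGC, read on both strands, and 3.31% of all 35116 promoters of this length (3.99% of genes) hold at least 1 of them. Among the 8 genes, DNMT1 (1 of 1 promoter) and UHRF1 (2 of 3 promoters) held such a word. The words without their first T occur in 13% of all promoters (15.3% of genes), and added a further match in UHRF1 and 1 match each in UHRF2 and TET3. No E2F word of either length was found in these windows of DNMT3A, DNMT3B, TET1 or TET2. The 30-base stretches around the matches are shown because they let the words of 8 letters in the maintenance pair DNMT1 and UHRF1 be compared with the shorter words in UHRF2 and TET3. They are written along the strand of the gene, with the word, or its reverse complement, in capitals.
DNMT1 (chr19:10194937-10194966, minus strand): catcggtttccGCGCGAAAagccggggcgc
UHRF1, first start (chr19:4909476-4909505, plus strand): gccgagttttcGCGGGAAAaaaatcagagc
UHRF1, second start (chr19:4909973-4910002, plus strand): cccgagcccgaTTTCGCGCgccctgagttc
UHRF1, first start, 7 letters (chr19:4909386-4909415, plus strand): ctctttctcgcTTCCCGCcactgcgtcggc
UHRF2, 7 letters (chr9:6413152-6413181, plus strand): cgagatccggcTTGGCGCcgtgacctccat
TET3, 7 letters (chr2:73984767-73984796, plus strand): ccctcccctccGCGGGAAccacccccctct
The word in DNMT1 begins 2 bases before the start and runs across it, and the 8-letter words in UHRF1 begin 14 and 160 bases before their starts. A match of letters is a description of the sequence and no evidence of binding.

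The libraries held 13198932 to 20055550 expected counts. Levels are given in CPM, counts scaled by TMM to a common library size, or, where genes are compared with each other, in TPM, which is corrected for transcript length. EZH2 fell from 153 and 181 CPM (control shRNA) to 52.6 and 44.8 CPM (shEZH2), and E2F1 fell from 143 and 138 CPM to 26.0 and 22.5 CPM in the shE2F1 libraries. E2F1 was also low in the shEZH2 libraries, and unevenly so, at 62.4 and 32.3 CPM. The markers VIM, CD44, EGFR, AXL and MSN were present (lowest 72.2 TPM), and ESR1, PGR, FOXA1 and ESRP1 stayed at or below 0.24 TPM. KRT19 (246 to 847 TPM), ERBB2 (20 to 35.6 TPM) and GATA3 (5.86 to 13.8 TPM) were not low, against the marker list fixed for this line, and CDH1 lay between, at 0.26 to 4.5 TPM. PTPRC, CD3E, PECAM1 and VWF did not exceed 1.11 TPM.

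The 8 genes differed in level by more than 3 orders of magnitude on the TPM scale. DNMT1 was the highest in every group and UHRF1 the second, with DNMT1 at 181 and 193 TPM and UHRF1 at 106 and 99.3 TPM in the control shRNA libraries. TET1 was the lowest in every group, at 0.03 to 0.20 TPM, from 4 to 25 counts per library. The remaining 5 genes lay between 2.81 and 30.8 TPM and changed places with the condition. In the control shRNA libraries the order below UHRF1 was UHRF2, DNMT3B, DNMT3A, TET3 and TET2, where DNMT3B (8.09 and 9.04 TPM) and DNMT3A (6.57 and 8.93 TPM) overlapped. In the shEZH2 libraries DNMT3B and TET3 stood above UHRF2 and no neighbours in the order overlapped. Neighbours overlapped in the shE2F1 libraries for TET3 and DNMT3A, in the DMSO libraries for TET2 and TET3, and in the GSK126 libraries for DNMT3A and DNMT3B.

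**Figure D1:**
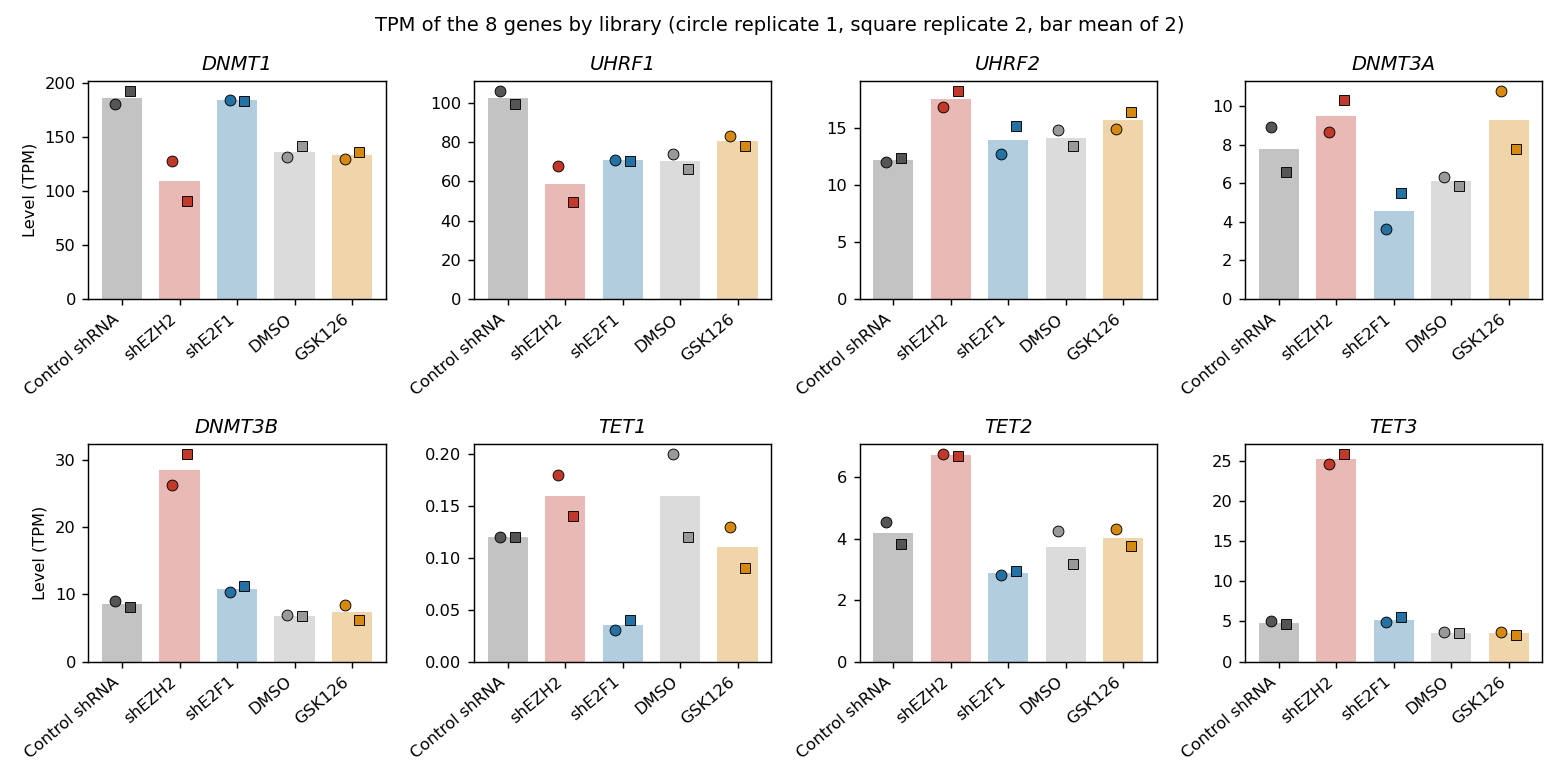
TPM of the 8 genes (vertical axes, linear, each panel with its own scale) in the 5 groups, with a circle for replicate 1, a square for replicate 2 and a bar for their mean. DNMT3B (26.2 and 30.8 TPM) and TET3 (24.6 and 25.8 TPM) stand out in the shEZH2 libraries, where DNMT1 (128 and 90.4 TPM) and UHRF1 (67.9 and 49.7 TPM) have their lowest group means.

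The first comparison asked how depletion of EZH2 affected these genes. TET3 and DNMT3B rose about 4-fold, TET2 rose less, and DNMT1 and UHRF1 fell to about 0.47 and 0.49 of the control level. In all, 5 of the 8 genes passed (adjusted p under 0.01), 3 higher and 2 lower, and 4 of them also changed more than 2-fold. Among all 15373 genes tested, 41.7% passed, 20.2% higher and 21.5% lower, and 18.2% passed with more than 2-fold. The median absolute log2 change was 0.77 over the 8 genes and 0.54 over all genes tested. Genes were tested here and below by the quasi-likelihood method of edgeR, and p-values were adjusted (Benjamini-Hochberg) over all genes of the fit. The labels do not say whether the 2 libraries of a group came from separate cultures, so p-values measure the spread between these libraries only, which may be technical.

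DNMT1, the maintenance enzyme (chr19:10133342-10231286), was at 507 and 536 CPM with control shRNA and at 302 and 194 CPM with shEZH2. Both shEZH2 libraries lay below both controls, but they differed from each other more than the controls did. The log2 change was −1.09 ± 0.16 (SE, adjusted p = 0.00025). UHRF1, its recruiting partner (chr19:4903080-4962154), was at 264 and 265 CPM in the controls and at 149 and 110 CPM with shEZH2. The same shEZH2 library, replicate 2, was the lower for both genes, and the log2 change of UHRF1 was −1.04 ± 0.13 (adjusted p = 6.5e-05). Without shEZH2 replicate 2 both still passed, at −0.79 for DNMT1 and −0.82 for UHRF1, but neither was then lower by more than 2-fold; without replicate 1 the values were −1.44 and −1.28. An offset for GC content and length gave −0.86 for UHRF1, and an effective length offset −0.97 for DNMT1 and −0.99 for UHRF1, also under 2-fold. E2F1 itself was the lower in the same library, as was the summed level of 42 S phase genes, at 3210 and 2692 CPM with shEZH2 against 4257 and 4729 CPM in the controls. The part of either in the fall of DNMT1 and UHRF1 was not tested, and in bulk RNA fewer cells in S phase and less RNA per cell cannot be told apart.

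UHRF2, the paralog (chr9:6413151-6507054), lay above its controls, at 32.7 and 32.6 CPM against 24.3 and 25.3 CPM. The groups did not overlap, but its log2 change of 0.39 ± 0.13 did not pass (adjusted p = 0.0235).

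The de novo enzymes differed from each other. DNMT3B (chr20:32762385-32809359) was at 13.6 and 11.3 CPM in the controls and at 44.6 and 59.5 CPM with shEZH2. Every shEZH2 library was far above every control, with a log2 change of 2.05 ± 0.16 (adjusted p = 4.68e-06), or 4.14-fold. The effective length that RSEM assigned to DNMT3B, which averages over its transcripts by their abundance, was also higher, at 2760 and 3020 bases with shEZH2 against 2157 and 1912 bases in the controls. With this length taken as an offset the log2 change of DNMT3B was 1.55 (adjusted p = 4.33e-05). DNMT3A (chr2:25227855-25342590) had overlapping groups, at 17.5 and 17.1 CPM in the controls and 17.0 and 18.2 CPM with shEZH2. Its log2 change was 0.02, with a 95% interval from −0.36 to 0.39.

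Of the TET genes, TET3 (chr2:73984910-74108176) showed the largest change among the 8 genes in this comparison. It was at 40.2 and 40.8 CPM in the controls and at 176 and 194 CPM with shEZH2. The groups lay far apart, with a log2 change of 2.18 ± 0.10 (adjusted p = 3.79e-07), or 4.53-fold, and its effective length hardly moved (11514 to 11897 bases over these 4 libraries). TET2 (chr4:105145875-105279816) was at 28.9 and 26.0 CPM in the controls and at 38.1 and 39.6 CPM with shEZH2, and passed at 0.49 ± 0.11 (adjusted p = 0.0037). This smaller rise did not hold with the offset for GC content and length, where it was 0.13 (adjusted p = 0.343, or 0.334 with the replicate block added). In all it lost its call in 7 of 14 alternatives, among them the effective length offset (0.50, adjusted p = 0.0104) and a fit of only the 4 libraries compared (0.49, adjusted p = 0.0101). It also lost it without control replicate 2 (adjusted p = 0.0191), without shEZH2 replicate 1 (0.0102) and without shEZH2 replicate 2 (0.0194). TET1 (chr10:68560337-68694487) had 15 and 14 counts in the controls and 14 and 15 with shEZH2, too few for a difference below about 2-fold to be detectable (95% interval of the log2 change −0.76 to 1.18).

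**Figure D2:**
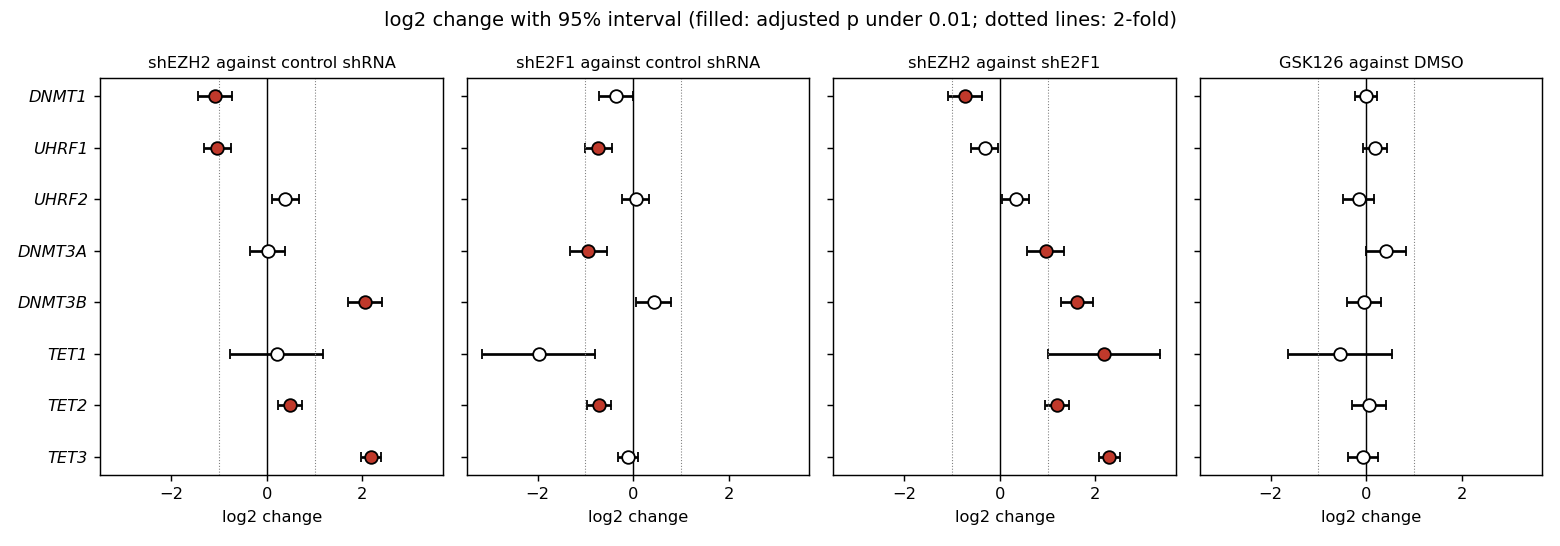
Change of the 8 genes on the log2 scale (horizontal axes) in 4 comparisons, with points for the fitted change, bars for its 95% interval, filled points for an adjusted p under 0.01 and dotted lines at 2-fold. In the EZH2 knockdown TET3 (2.18) and DNMT3B (2.05) lie right of the upper line and DNMT1 (−1.09) and UHRF1 (−1.04) just left of the lower one, whereas with GSK126 all points are open.

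The second comparison asked the same of E2F1. UHRF1, DNMT3A and TET2 were lower with shE2F1, none of them by more than 2-fold, and no gene of the 8 passed upward. Thus 3 of 8 passed, where 30.1% of all genes tested passed, 13.6% higher and 16.5% lower. None passed with more than 2-fold, against 11.6% of all genes. These changes were measured against the same control libraries as those of shEZH2.

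UHRF1 was at 163 and 157 CPM with shE2F1 and at 264 and 265 CPM in the controls, a log2 change of −0.73 ± 0.13 (adjusted p = 0.000895). DNMT3A fell from 17.5 and 17.1 CPM to 7.47 and 10.7 CPM, a log2 change of −0.94 ± 0.17 (adjusted p = 0.00136). TET2 fell from 28.9 and 26.0 CPM to 16.8 and 16.9 CPM, a log2 change of −0.72 ± 0.12 (adjusted p = 0.000591). In each of the 3 genes both shE2F1 libraries lay below both controls. With only 1 shE2F1 library kept, UHRF1 (adjusted p = 0.0116 and 0.0173, without replicate 1 and 2) and TET2 (0.0113 and 0.0109) did not pass, and DNMT3A did not pass without replicate 1 (−0.71, adjusted p = 0.0223).

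DNMT1 depended on the scale. It was at 409 and 407 CPM with shE2F1, below the controls at 507 and 536 CPM, but at 185 and 184 TPM against 181 and 193 TPM, since its effective length was also shorter (a mean of 3543 against 3902 bases). The log2 change of −0.36 ± 0.16 did not pass (adjusted p = 0.0916), and with the effective length as an offset it was −0.24 (adjusted p = 0.206). It did pass without the filter on low counts (−0.34, adjusted p = 0.0014) and in a fit of only the 4 libraries compared (−0.35, adjusted p = 0.00868). TET1 had 4 and 4 counts against 15 and 14 in the controls, with a log2 change of −1.98 ± 0.53 that missed the threshold (adjusted p = 0.0117). DNMT3B was at 17.7 and 16.2 CPM, above both controls, at 0.43 ± 0.16 (adjusted p = 0.0539). TET3 (−0.11, 95% interval −0.33 to 0.10) and UHRF2 (0.05, −0.23 to 0.34) did not pass either.

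Set directly against each other, the knockdowns differed in 6 of the 8 genes, 5 higher and 1 lower with shEZH2. Among all genes tested 46.4% passed in this comparison, 23.3% higher and 23.2% lower, and 23.3% passed with more than 2-fold, as did 4 of the 8 genes. The change in this contrast is taken between the shEZH2 and shE2F1 libraries, but the control libraries share the fit and enter its estimate of the spread. TET3 was higher with shEZH2 by 2.29 ± 0.10 on the log2 scale (adjusted p = 1.25e-07) and DNMT3B by 1.62 ± 0.16 (adjusted p = 8.18e-06). TET2, above its controls in the first knockdown and below them in the second, differed by 1.20 ± 0.12 (adjusted p = 8.18e-06), and DNMT3A by 0.96 ± 0.18 (adjusted p = 0.000767). DNMT3A did not pass without shE2F1 replicate 1 (0.72, adjusted p = 0.0134). DNMT1 was lower with shEZH2 by −0.73 ± 0.16 (adjusted p = 0.00281), a call that was lost without either shE2F1 library (adjusted p = 0.0204 and 0.019) and in DESeq2 (0.0154). TET1 differed by 2.19 ± 0.53 (adjusted p = 0.00459) on 14 and 15 against 4 and 4 counts. It lost its call in 7 of 13 alternatives. These were DESeq2, the GC and length offset with and without the replicate block, and leaving out any of these 4 libraries. UHRF1, lower than its controls in both knockdowns, did not differ between them beyond the threshold (−0.31, 95% interval −0.59 to −0.03, adjusted p = 0.0552), and without shEZH2 replicate 1 it did (−0.54, adjusted p = 0.002). UHRF2 did not pass either (0.33, adjusted p = 0.0407).

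The fourth comparison asked what inhibition of EZH2 activity, without loss of the protein, did to these genes. None of the 8 genes passed with GSK126 in the fit without a replicate block, and none had an unadjusted p under 0.05. The call depended on that choice. With the replicate number as a block, DNMT3A and UHRF1 passed, as did 1164 of all genes, on 1 residual degree of freedom. Replicate differences of DMSO and GSK126 correlated at 0.644 over genes, but the labels do not say that equal numbers belong together. Over all 14632 genes 0% passed in edgeR and 3.94% (577 genes) had an unadjusted p under 0.05, while DESeq2 passed 14 genes, none of the 8 among them. The median absolute log2 change was 0.11 over the 8 genes and 0.11 over all genes.

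For the genes with the largest changes in the EZH2 knockdown, the 95% intervals with GSK126 did not reach a change of that size. These intervals rest on the spread between the libraries of a group, which may be technical. TET3 was at 29.6 and 29.1 CPM with DMSO and at 29.4 and 26.6 CPM with GSK126, and DNMT3B at 10.9 and 11.4 CPM against 11.1 and 10.5 CPM. The 95% intervals of their log2 changes ran from −0.38 to 0.24 for TET3 and from −0.40 to 0.31 for DNMT3B. DNMT1 was at 357 and 363 CPM with DMSO and 353 and 365 CPM with GSK126 (95% interval −0.24 to 0.23). In these 3 genes the groups overlapped.

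In DNMT3A and UHRF1 both GSK126 libraries lay above both DMSO libraries. How many of all genes tested were separated in either direction was not counted, so this order is a description only. DNMT3A was at 22.8 and 17.7 CPM against 16.3 and 14.1 CPM (log2 change 0.41 ± 0.18, adjusted p = 1), and UHRF1 at 197 and 202 CPM against 177 and 172 CPM (0.19 ± 0.10, adjusted p = 1). Within replicates 1 and 2 the log2 ratio was 0.48 and 0.33 for DNMT3A and 0.15 and 0.23 for UHRF1. The sign was also the same in both replicates for TET1 (−0.61 and −0.42), UHRF2 (−0.20 and −0.11) and TET3 (−0.01 and −0.13). It differed for DNMT1, DNMT3B and TET2. UHRF2 had both GSK126 libraries below both DMSO libraries, at 28.2 and 26.9 CPM against 32.4 and 29.0 CPM (−0.16 ± 0.13), but above them in TPM, and with the effective length as an offset its change was 0.13. TET2 (0.06) and TET1 (−0.54 on 10 to 25 counts) had overlapping groups.

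The difference between the change in the EZH2 knockdown and the change with GSK126 was then tested in a fit of all 10 libraries, each change against its own controls. Of the 8 genes 4 differed, all by more than 2-fold, where 21% of all 15773 genes passed, 9.35% higher and 11.6% lower, and 13.8% passed with more than 2-fold. The difference was 2.26 ± 0.16 for TET3 (adjusted p = 5.23e-06) and 2.11 ± 0.23 for DNMT3B (adjusted p = 7.42e-05). It was −1.22 ± 0.18 for UHRF1 (adjusted p = 0.000381) and −1.07 ± 0.22 for DNMT1 (adjusted p = 0.00282). DNMT1 did not pass without control replicate 2 (−1.04, adjusted p = 0.0135). UHRF2 (0.56, adjusted p = 0.0329), TET2 (0.44, adjusted p = 0.0784), DNMT3A (−0.39, adjusted p = 0.257) and TET1 (0.76, adjusted p = 0.37) did not pass. The knockdown cells had been transduced and selected and the drug cells had not, and this difference of handling cannot be told apart from that between depletion and inhibition.

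The make-up of each enzyme class followed from these levels. DNMT3B made up 4.54% and 3.90% of the summed TPM of the 3 DNMT genes in the controls, and 16.1% and 23.4% in the shEZH2 libraries. In the other 3 groups its share was 4.12% to 5.68%. TET3 made up 51.8% and 54.3% of the summed TET level in the controls and 78.0% and 79.1% with shEZH2, while that sum rose from 9.65 and 8.62 TPM to 31.5 and 32.6 TPM. With shE2F1 the share of TET3 was 63.4% and 64.7%, the sum being 7.76 and 8.51 TPM. The summed DNMT level was 199 and 207 TPM in the controls and 162 and 132 TPM with shEZH2, most of it DNMT1 in every library. It was 199 and 201 TPM with shE2F1. In the drug experiment it was 144 and 155 TPM with DMSO and 149 and 150 TPM with GSK126. A sum below that of the control shRNA libraries was thus not particular to shEZH2.

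**Figure D3:**
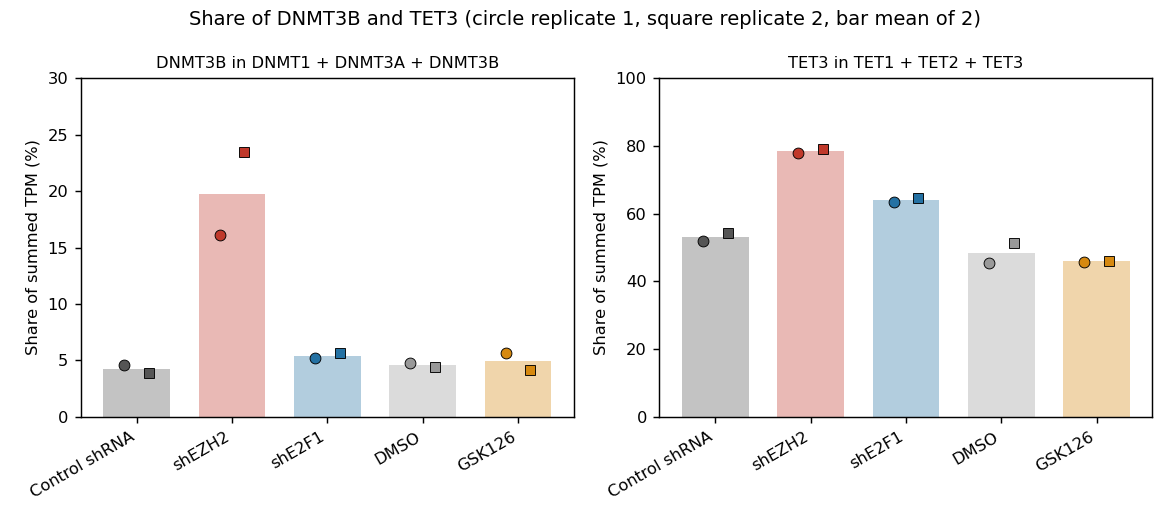
Share of DNMT3B in the summed TPM of DNMT1, DNMT3A and DNMT3B (left, axis to 30%) and of TET3 in that of TET1, TET2 and TET3 (right), by group, with a circle for replicate 1, a square for replicate 2 and a bar for their mean. Both shares are highest in the shEZH2 libraries, at 16.1% and 23.4% for DNMT3B and 78.0% and 79.1% for TET3.

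The other genes of the pathway were read from 6 lists, described by counts and medians. For GSK126 the lists were read only from the fit without a replicate block, a choice on which calls depended. The first list held genes that act with DNMT1 and UHRF1, or whose loss causes the ICF syndrome of defective methylation. It also held TRDMT1, which is of neither kind, and 16 of its genes were tested. With shEZH2 4 rose, TRDMT1 among them, and 6 fell, where 20.2% of all genes tested rose and 21.5% fell. The median log2 change was −0.24. L3MBTL3, known to target methylated DNMT1 for degradation, rose from a mean of 5.5 to 29.4 CPM (2.40, adjusted p = 4.2e-06), and SETD7, which methylates DNMT1, rose by 0.69 (adjusted p = 9.35e-05). CDCA7, the partner of the remodeller HELLS, fell by 1.61 on the log2 scale (adjusted p = 9.79e-06), PCLAF, a PCNA partner that helps to recruit DNMT1, by 1.08 (adjusted p = 4.94e-05), and the histone chaperone subunit CHAF1A by 1.00 (adjusted p = 1.43e-05). With shE2F1, where 16.5% of all genes tested fell and 13.6% rose, 4 of the 16 fell and none rose. They included USP7, the deubiquitinase that protects DNMT1 and UHRF1 (−0.97, adjusted p = 4.24e-05), and KDM1A, which demethylates DNMT1 (−0.66, adjusted p = 0.000555). None of the 16 passed with GSK126, where 0% of all genes tested passed.

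Of 10 genes for proteins that read methylated DNA, or are related to such readers, 1 rose and 3 fell with shEZH2. Among all genes tested 20.2% rose and 21.5% fell. MBD2 rose by 0.39 (adjusted p = 0.00444) and MBD5, MBD1 and MBD3 fell by 0.70, 0.64 and 0.63 on the log2 scale. With shE2F1 ZBTB38 (−0.71) and MBD3 (−0.64) fell and none rose, where 16.5% of all genes fell and 13.6% rose.

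Of 20 genes tested that complete demethylation downstream of the TET enzymes or supply their cofactors, 3 rose and 6 fell with shEZH2, against the same 20.2% and 21.5% of all genes. GADD45A (0.89, adjusted p = 1.44e-05) and GADD45B (0.77, adjusted p = 0.000217), stress genes linked to demethylation, rose, as did TDG, the glycosylase that removes oxidised cytosine (0.61, adjusted p = 0.00616). The glycosylase NEIL3 (−1.89), the dehydrogenase IDH2 (−1.46), which can supply the TET cosubstrate, and the DNA ligase LIG3 (−1.31) fell. With shE2F1 5 rose and 4 fell, where 13.6% of all genes rose and 16.5% fell. TDG (1.34, adjusted p = 5.04e-05), D2HGDH, which clears an inhibitor of the TET enzymes (1.31, adjusted p = 0.000401), and GADD45A (1.16, adjusted p = 3.68e-06) rose there. NEIL2, a glycosylase (−1.04, adjusted p = 0.00631), CXXC5, a CpG-binding protein (−0.86, adjusted p = 0.00542), and LIG3 (−0.82, adjusted p = 0.00442) fell.

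The methyl donor of all DNMT enzymes comes from the S-adenosylmethionine and folate cycles, of which 14 genes were tested. With shEZH2 1 rose and 8 fell, where 20.2% of all genes rose and 21.5% fell. The median was −0.62, against −0.02 over all genes. The folate enzymes SHMT2 (−1.11, adjusted p = 0.000224) and MTHFD1 (−0.98, adjusted p = 3.89e-05) fell, and NNMT, which consumes the methyl donor, rose from a mean of 7.2 to 33.3 CPM (2.18, adjusted p = 5.94e-05). With GSK126, where 0% of all genes tested passed, none of the 14 did. NNMT was there at 25.6 and 21.5 CPM against 9.7 and 10.7 CPM with DMSO (1.21, adjusted p = 0.579 without a replicate block). With shE2F1 5 fell and none rose, where 16.5% of all genes fell and 13.6% rose. SHMT2 (−1.27) fell most, then MTR (−0.88) and MTRR (−0.66), the enzyme pair that remakes methionine.

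S phase genes were counted beside DNMT1 and UHRF1, which are expressed with them. With shEZH2 24 of 42 fell and 1 rose, with a median of −0.55, where 21.5% of all genes fell. E2F8 (−1.82), RRM2 (−1.69) and MCM6 (−1.68) fell most. With shE2F1 8 fell and 1 rose, where 16.5% of all genes fell, and the median was 0.04. UHRF1 (−0.73) and DNMT1 (−0.36, which did not pass) lay below this median. With shEZH2 too, UHRF1 (−1.04) and DNMT1 (−1.09) lay below the median of the list. RRM2 (−2.42), POLD3 (−1.22) and CDCA7 (−0.92) fell. With GSK126 none passed, where 0% of all genes tested passed, and the median was 0.07. CDCA7, PCNA and HELLS are on this list and on that of the maintenance partners.

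Germline genes that promoter methylation keeps silent in somatic cells were nearly all unread. Of 36, 16 had no count in any library after rounding to whole counts and 28 never had more than 3, which is the limit that a count of 0 allows (0.150 to 0.227 CPM, by counting error only). In the knockdown comparisons 5 passed the filter, and 3 of them rose with shEZH2, where 20.2% of all genes tested rose. The 3 are named here after their values were seen. TEX14 and TDRD9 passed the filter only through the shEZH2 libraries, where they were high, so the count of 3 among 5 was partly set by the filter. The adjusted p-values of TEX14 and TDRD9 rest on that same entry and are given as description only. TEX14 had 76 and 147 counts with shEZH2 against 7 and 9 in the controls (adjusted p = 1.84e-05). STK31 had 57 and 85 counts against 6 and 5 (adjusted p = 2.37e-05), and TDRD9 had 10 and 21 against 0 and 1 (adjusted p = 0.00168). MAGEC2 lay the other way, with 14 and 6 counts against 43 and 27, and did not pass (−1.55, adjusted p = 0.0202), nor did MAEL (0.95, adjusted p = 0.0329). None of the 5 passed with shE2F1. MAEL and MAGEC2, the only germline genes tested with GSK126, did not pass there, where 0% of all genes passed. DNA methylation itself was not measured in these libraries.

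**Figure D4:**
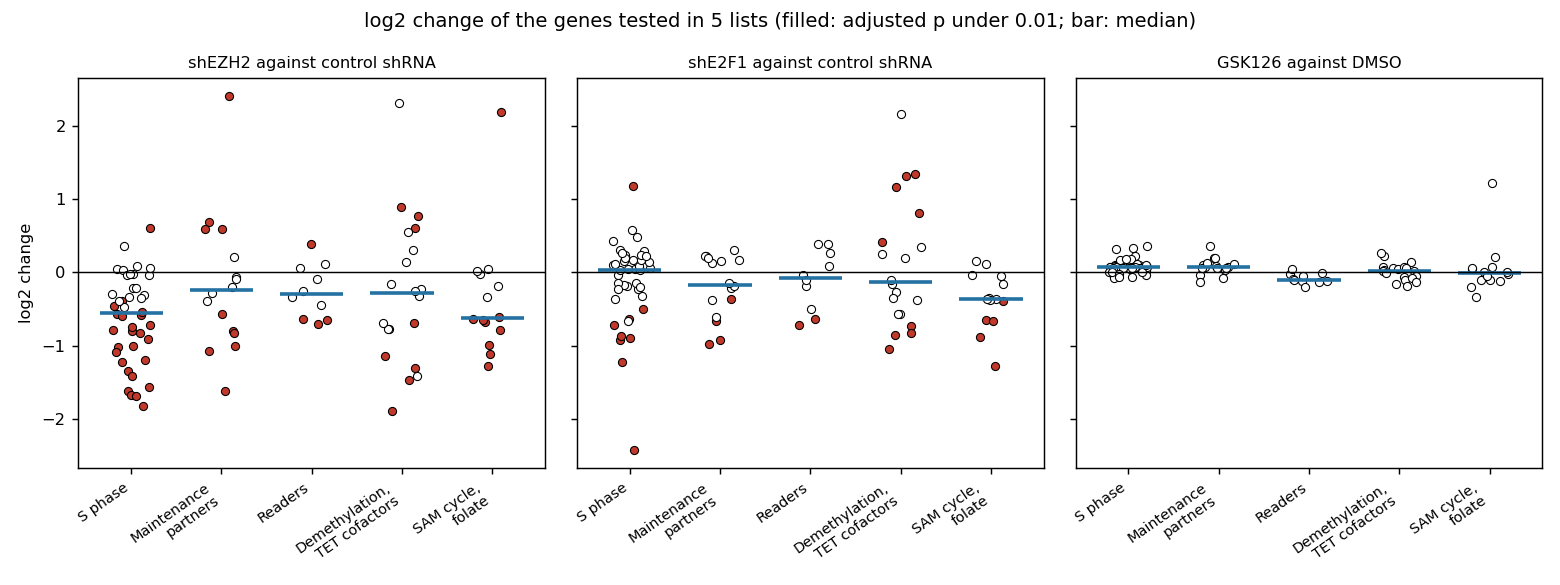
Change on the log2 scale (vertical axis) of the genes tested in 5 lists under shEZH2, shE2F1 and GSK126, with a point for each gene, filled at an adjusted p under 0.01, and a bar at the median. The S phase medians are −0.55, 0.04 and 0.07 in the 3 panels, and no point is filled with GSK126, where 0% of all genes tested passed.

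For each of the 8 genes up to 3 genes with the most similar pattern were taken by Pearson's r of log2 CPM over the 10 libraries, which fall into 5 groups of 2, so that a large change in 1 group can fix the value. TET3 was matched by DCBLD1, PEX26 and ALPK2 (r = 0.995 to 0.992) and DNMT3B by MRS2, MFSD11 and BRD2 (0.993 to 0.992), all higher in both shEZH2 libraries than in any other. DNMT1 was matched by ZWINT, GEMIN6 and SMC1A (0.971 to 0.968), which were lower in both shEZH2 libraries than in any other library. The matches of UHRF1 included TYMS and PRRC2A (0.965 and 0.956). TET2 was matched by NUDT3, CARNMT1 and MLLT3 (0.987 to 0.983), each highest with shEZH2 and lowest with shE2F1. DNMT3A (TMOD2, CAMK4 and PREP, 0.958 to 0.945), UHRF2 (RNF111, ATF1 and ZNF398, 0.936 to 0.906) and TET1 (TSPYL1, PER2 and ZMYM4, 0.978 to 0.973, on few TET1 counts) completed the set.

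The counts of the 8 genes were assigned with little ambiguity. The posterior SD that RSEM gave was 0 for 6 of them, at most 0.348% of the count for UHRF1 and at most 0.215% for TET3. Exons of other genes on the same strand overlapped DNMT1 over 83 bases (S1PR2, 0.54% of the exon bases) and TET3 over 390 bases (a long noncoding RNA, 3.01%), and reads there may be shared. Gene positions are those of GENCODE release 44 on GRCh38.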

How the data were processed

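Poly(A) RNA of MDA-MB-231 was sequenced with a strand-specific kit. Of 18 sample records 8 repeated another value for value, leaving 10 libraries (5 groups of 2, from the labels). Per the study's methods the authors mapped reads with STAR to hg38 with an Ensembl annotation and quantified genes with RSEM; the submitters' processing notes name STAR 2.7.2b and RSEM 1.3.1, a STAR version that differs from that in the methods. The strand setting of the counting is not given in the sources used here. The deposited files hold expected counts, in which reads shared between genes are divided, TPM, effective lengths (another measure, in bases), and, as a signal for the certainty of the assignment, the posterior SD of the deposited counts; bounds on TPM were deposited too and not used.

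Expected counts were rounded and tested in R 4.3.3 with edgeR 4.0.16 (filterByExpr, TMM, quasi-likelihood F-test, Benjamini-Hochberg adjustment over all genes). The 6 knockdown libraries shared a fit, the 4 drug libraries another, and the difference between knockdown and inhibitor came from all 10. A gene passed at an adjusted p under 0.01; the study's threshold of 2-fold was added where stated. The study's tool, DESeq2 1.42.0, was an alternative. Totals of 13198932 to 20055550 counts limit precision by counting error. The fits were tested on simulated data. Of the gene identifiers, 62625 of 62703 were found in GENCODE release 44.

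The 8 genes and the gene lists were chosen with earlier results of these data known. Named genes were the 8, EZH2 and E2F1, at most 3 per list, comparison and direction with the largest change among those that passed and averaged 50 or more counts, and the 3 most similar genes per member; some genes that this rule selected are not reported here. Promoters came from RefSeq. Alternatives were DESeq2, its size factors, no filter, a minimum mean of 50 counts, fits of only the 4 compared libraries or of all 10, a replicate block, an offset from splines (5 degrees of freedom) of GC content and length, an adjusted p of 0.05, leaving out each library and, added after the data were seen, an effective length offset. Protein sequences and the hairpin sequences were not used here.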

Additional observations from a re-analysis of the deposited data

Results flagged for a closer look

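For 4 of the 8 genes the change in shEZH2 and the change with GSK126, which act on the same enzyme, differed in the test of the difference itself. On the log2 scale the change in shEZH2 minus the change with GSK126 was 2.26 for TET3, 2.11 for DNMT3B, −1.22 for UHRF1 and −1.07 for DNMT1. No test of single libraries that stand apart was possible in groups of 2.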

How the results depend on the processing

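The number of the 8 genes that passed was 5, 3, 6, 0 and 4 in the comparisons of shEZH2 with control shRNA, shE2F1 with control shRNA, shEZH2 with shE2F1, GSK126 with DMSO, and of the change in shEZH2 with the change under GSK126. In the shE2F1 comparison it was 0 without shE2F1 replicate 1 and 1 without shE2F1 replicate 2, and in that of shEZH2 with shE2F1 it was 3 without shE2F1 replicate 1. TET3, DNMT3B, DNMT1 and UHRF1 kept their direction and passed in shEZH2 under all 14 alternatives.

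With the replicate as a block, 2 of the 8 genes passed with GSK126, DNMT3A (0.41, adjusted p = 0.00265) and UHRF1 (0.19, adjusted p = 0.000368), and also 2 with the block and the GC and length offset. That block left 1 residual degree of freedom. The replicate differences of DMSO and GSK126 correlated at 0.644 over 11919 genes, and those of other pairs of groups at −0.073 to 0.214, but the labels give the numbers no meaning beyond a name.

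Sign changes were limited to changes that passed in neither setting, except that of the S phase gene BRIP1 (shEZH2 against shE2F1). With the GC and length offset, alone and with the block, DNMT3A in shEZH2 was −0.061 and −0.068, TET1 in shEZH2 −0.147 and −0.146, and BRIP1 −0.071 and −0.069. With the effective length offset UHRF2 in shE2F1 was −0.022, DNMT3B with GSK126 0.071 and UHRF2 with GSK126 0.131. DNMT1 with GSK126 was 0.0044 under the filter on a mean of 50 counts. With a library left out, DNMT3A in shEZH2 ranged from −0.021 to 0.060, UHRF2 in shE2F1 from −0.104 to 0.198, and, with GSK126, DNMT1 from −0.020 to 0.022, TET2 from −0.080 to 0.225 and TET3 from −0.143 to 0.0068. The causes were not tested.

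Over all genes, the count that passed with GSK126 was 0, or 14 in DESeq2, 1164 with the block, 1578 with block and offset, and 38 to 45 with a library left out. For shEZH2 minus GSK126 it was 3308, or 5177 with the block, 5780 at an adjusted p of 0.05, 2139 without control replicate 1 and 1581 without shEZH2 replicate 2. For shE2F1 it was 4620, or 2309 and 2200 without shE2F1 replicate 1 and 2, and for shEZH2 against shE2F1 7140, or 4655 without shE2F1 replicate 1. TET1, at 4 to 25 counts, is limited by depth.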
